A study of Caenorhabditis elegans with 57 samples.

Results

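Male offspring of a cross in Caenorhabditis elegans were profiled here by the RNA of their germlines, in 8 of the 57 samples of the series. The members were chosen by their labels, though with earlier results of these data known. They are 4 libraries from males whose fathers were mes-3(bn35) and 4 from males whose fathers carried mes-3(bn35) over the GFP-marked balancer hT2. Following the sample titles, the first group is called M+P- (maternal K27me3 history plus, paternal minus) and the second M+P+. Both kinds of father also carried him-8(e1489) in the N2 background, and both kinds of mother were fem-2(b245ts) in the CB4856 background, so that the oocyte and sperm genomes can be told apart by sequence differences. The offspring of both groups had the same labelled genotype, heterozygous at mes-3, fem-2 and him-8, and the groups therefore differ in the genotype of the father. No hT2 appears in the labelled genotype of the offspring, and the balancer of the M+P+ fathers cannot be told apart from their mes-3 status. Each sample held the distal parts of 30 to 50 germlines of day 1 adult males, collected at 20 °C, from which poly(A) RNA was sequenced. The fem-2 strains had been kept at 15 °C, and the mothers had been raised at 25 °C to make females. The labels call the samples biological replicates but name neither parents nor collection days, so the p-values measure the spread between these pools.

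MES-3 acts with MES-2 and MES-6 in the worm's Polycomb repressive complex, which places the repressive methyl marks on lysine 27 of histone H3 (H3K27me3). Chromosomes in worm sperm retain histones, so a father that lacks the complex passes on chromosomes without the mark while the oocyte chromosomes carry it. MES-4, which places H3K36me3 on genes expressed in the germline, works in opposition to the complex. Worm males have a single X, inherited from the oocyte, and X-linked genes are expressed at a very low level in the germline.

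The paired-end libraries held 10388110 to 15369868 counts over genes, and 3 counts corresponded to 0.195 to 0.289 CPM, a count scaled to a fixed library total. Between 12812 and 16328 genes had a count in a library. Spermatogenesis genes, 90 of 93 of which were tested, summed to 10050 to 24250 CPM in M+P- and 12660 to 32470 CPM in M+P+, and the 51 core germline genes summed to 13780 to 16480 CPM in all 8 libraries, so markers of the labelled tissue were present in each. M+P+ replicate 3, known beforehand for its somatic and X-linked RNA, stood apart. Its X-linked genes took 0.994% of counts against 0.0956% to 0.129% in the remaining 3 controls and 0.0845% to 0.288% in M+P-. Its muscle list of 32 genes summed to 4976 CPM against 455 to 580 CPM and 899 to 1635 CPM in the same groups. In M+P- a single gene, ketn-1, gave 253 to 574 CPM of these sums. The cuticle list of 179 genes reached 4445 CPM there against 69.2 to 378 CPM in its 3 fellow controls and 121.8 to 1180 CPM in M+P-. In such pools fewer cells of a type and less RNA per cell cannot be told apart. Results that rest on this library are given with and without it.

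**Figure D1:**
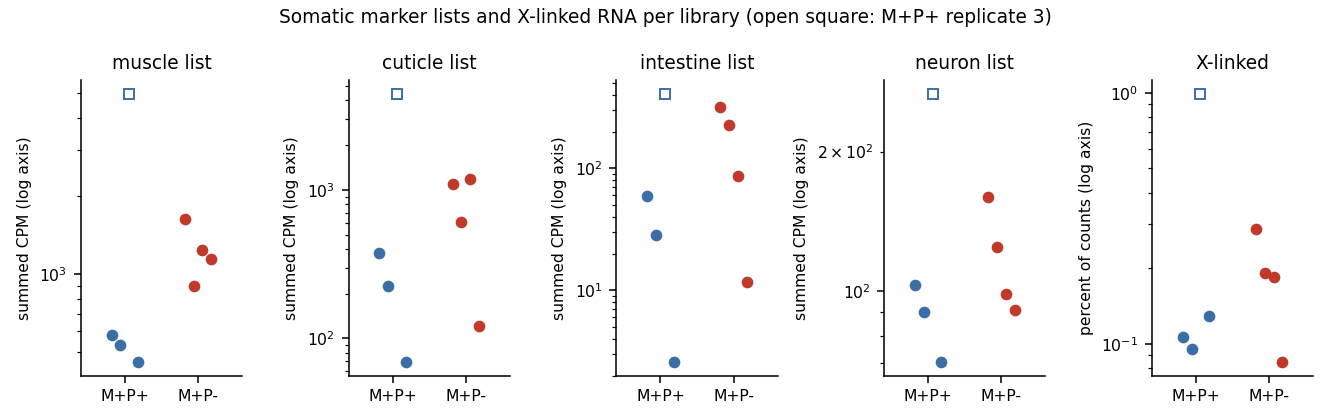
Each panel gives, for each of the 8 male libraries, the summed CPM of a somatic marker list or the percent of counts on X-linked genes, on log axes. M+P+ replicate 3 (open square) is the highest in every panel, and the 4 M+P- libraries sum to 899 to 1635 CPM on the muscle list, above the other 3 M+P+ libraries. In these M+P- sums ketn-1, a gene called without M+P+ replicate 3, gives 253 to 574 CPM and unc-60 gives 462.7 to 526.7 CPM.

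The gene that differs between the fathers was measured first. The mes-3 level was 40.8, 40.4, 42.2 and 40.6 CPM in M+P+ replicates 1 to 4 and 46.4, 40.8, 42.4 and 44.96 CPM in M+P-. The groups overlapped, and the log2 fold change was 0.06 ± 0.08 (SE; edgeR adjusted p = 1.0). Both groups are labelled heterozygous, and the level in the offspring does not check the genotype of the father. The partners mes-2 and mes-6 had log2 fold changes of -0.03 ± 0.05 and 0.06 ± 0.08, mes-4 had -0.05 ± 0.08, and him-8 and fem-2 had -0.09 ± 0.16 and -0.15 ± 0.14 (SE; edgeR adjusted p = 1.0 for each). None of the 5 tested genes among the 9 that place or remove H3K27me3 or place H3K36me3 passed the test in either fit.

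With all 8 libraries, 45 of 9189 genes tested rose in M+P- relative to M+P+ at an adjusted p under 0.05 (edgeR quasi-likelihood test with Benjamini-Hochberg adjustment), which is 0.49% of the genes tested, and 0 (0.0%) were lower. At an unadjusted p under 0.05 there were 294 higher and 155 lower. DESeq2 called 144 higher and 25 lower, and limma-voom with quality weights 196 and 29. The 45 genes were near silent in the controls: their median level was 0.326 CPM in M+P+ and 6.45 CPM in M+P-, and 33 of them averaged under 1 CPM in M+P+. In all 45 the lowest M+P- library lay above the highest M+P+ library, M+P+ replicate 3 included, against 291 of 9189 genes (3.17%) with such a separation upwards and 62 (0.675%) downwards. All 45 were called again without M+P+ replicate 3. The number called rests on each of the 8 libraries: without M+P+ replicates 1, 2, 3 and 4 it was 20, 9, 172 and 5 genes higher, and without M+P- replicates 1, 2, 3 and 4 it was 26, 10, 3 and 4.

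**Figure D2:**
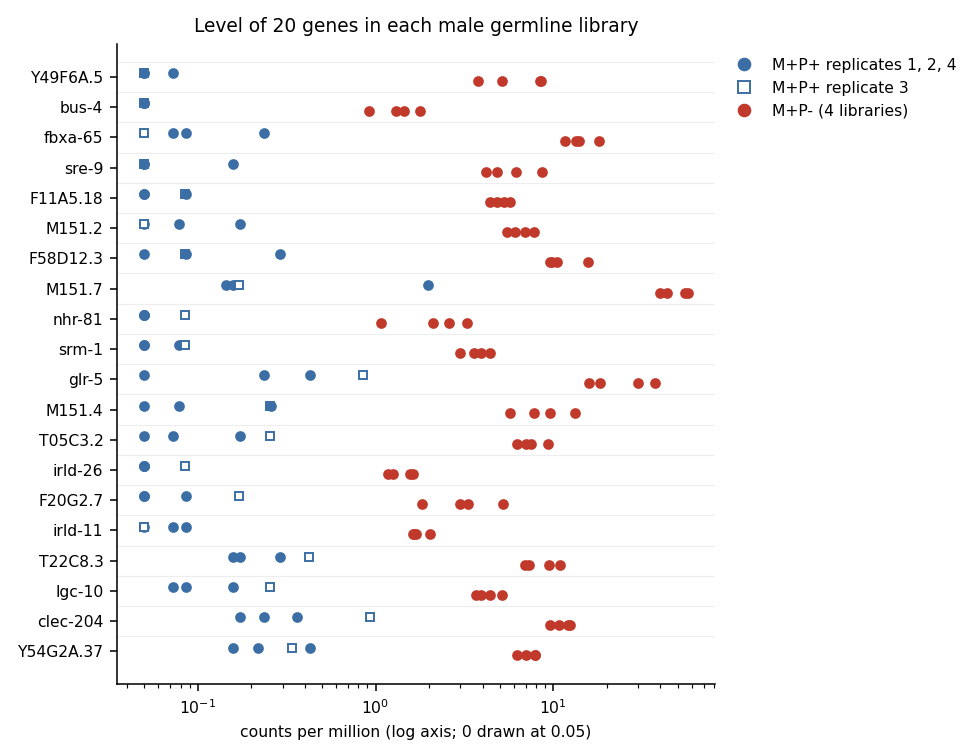
The 20 genes with the highest fold changes among those called with 8 libraries, with the CPM of each library as a point on a log axis; a value of 0 is drawn at 0.05. The 4 M+P- libraries lie to the right of all 4 M+P+ libraries for every gene, the open square of M+P+ replicate 3 included. This separation was a condition for choosing the genes.

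Genes of sensory and signalling families were among those that rose. The chemoreceptor gene sre-9 had 0, 0.157, 0 and 0 CPM in M+P+ replicates 1 to 4 and 4.15, 4.81, 8.66 and 6.15 CPM in M+P-. All 4 M+P- libraries were above every control, and the pooled ratio, resting on 2 control counts, was 143 (95% exact interval 39.3 to 1189; edgeR adjusted p = 0.026). The chemoreceptor gene srm-1 rose from 0 to 0.0849 CPM over the controls to 2.98 to 4.42 CPM, a ratio of 95.02 (25.9 to 790.3) on 2 control counts (edgeR adjusted p = 0.013). These 2 were the called members among 20 tested chemoreceptor genes of 1628, where 0.49% of all genes tested were called, and the list had a median log2 fold change of 0.41 against -0.03 over all genes tested.

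Ligand-gated channels contributed 3 called genes of 24 tested, where 0.49% of all genes tested were called. For glr-5, a glutamate receptor subunit, the controls had 0, 0.236, 0.849 and 0.429 CPM and the M+P- libraries 15.9, 29.7, 18.4 and 37.3 CPM. The groups did not overlap, and the log2 fold change was 6.02 ± 0.86 (SE; edgeR adjusted p = 0.030). The related channel genes lgc-10 and lgc-9 had log2 fold changes of 4.79 ± 0.44 and 3.65 ± 0.49 (SE; edgeR adjusted p = 0.0078 and 0.026). The list had a median log2 fold change of 0.52, and 18 of its 24 tested members were above 0.

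Nuclear hormone receptors, transcription factors that in many cases bind lipophilic ligands, gave 2 called genes of 46 tested, against 0.49% of all genes tested, with a median log2 fold change of 0.24. The receptor gene nhr-81 had a count in 1 control library only, at 0.0849 CPM, and 1.08, 3.25, 2.60 and 2.11 CPM in M+P-, a ratio of 115 (20.2 to 4567) on 1 control count (edgeR adjusted p = 0.028). The second, nhr-78, went from 0.218, 0.236, 0.594 and 0.258 CPM to 2.62, 4.62, 3.75 and 3.49 CPM (log2 fold change 3.41 ± 0.44 SE, edgeR adjusted p = 0.024).

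F-box proteins are substrate adaptors of ubiquitin ligases, and 3 of the 65 tested rose, against 0.49% of all genes tested, while the median of the list, 0.06, was near that of all genes. The gene fbxa-65 had 0.0725, 0.236, 0 and 0.0859 CPM in the controls and 17.998, 11.6, 13.5 and 13.9 CPM in M+P- (log2 fold change 6.99 ± 0.64 SE, edgeR adjusted p = 0.0078). Its family members fbxa-64 and fbxc-50 had log2 fold changes of 4.26 ± 0.43 and 2.03 ± 0.22. The C-type lectin gene clec-204 was the called gene of 38 tested in its family, against the same 0.49%: 0.363, 0.236, 0.934 and 0.172 CPM became 10.8, 12.4, 9.63 and 12.1 CPM (log2 fold change 4.66 ± 0.54 SE, edgeR adjusted p = 0.013). Copies of a family that share reads cannot be told apart where the counting split them, which bears on the F-box, lectin and C17E7 genes.

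Other genes in the group of 45 have no list. The glycosylation gene bus-4, known from resistance to a bacterial pathogen, had 0 counts in all 4 controls and 1.77, 1.30, 1.44 and 0.918 CPM in M+P-, at least 22.8-fold higher taking 3 counts over the control group as the floor (edgeR adjusted p = 0.034). M151.7 had 0.145, 0.157, 0.170 and 1.98 CPM in the controls and 54.9, 43.3, 56.9 and 39.9 CPM in M+P- (log2 fold change 6.26 ± 0.87 SE, edgeR adjusted p = 0.027). F25E5.1 was not silent in the controls: 9.06, 19.7, 20.03 and 16.3 CPM became 151, 130, 126 and 109 CPM (log2 fold change 2.95 ± 0.25 SE, edgeR adjusted p = 0.0075). The thermosensory guanylyl cyclase gene gcy-23 had 0.934 to 1.55 CPM in the controls and 5.23 to 8.26 CPM in M+P- (log2 fold change 2.52 ± 0.31 SE). Chosen after their values were seen, the autophagy gene atg-16.2 rose from 0.653 to 1.78 CPM to 25.1 to 31.1 CPM, the formin gene daam-1 from 1.595 to 1.87 CPM to 7.03 to 11.7 CPM, and saeg-1 from 15.3 to 34.7 CPM to 87.6 to 109.8 CPM. The log2 fold change was over 2 in 44 of the 45.

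The rest of the 20 genes with the largest changes are known by sequence name or as irld genes, a family with receptor-like extracellular domains. Y49F6A.5 had 0.0725 CPM in M+P+ replicate 1, 0 in the other controls and 8.54, 5.14, 8.38 and 3.76 CPM in M+P-, a ratio of 320 (95% exact interval 57.0 to 12670) on 1 control count. F58D12.3 had 0 to 0.290 CPM in the controls and 9.63 to 15.7 CPM in M+P-, and T22C8.3 had 0.157 to 0.424 CPM and 6.93 to 10.9 CPM. The family members irld-26 and irld-11 rested on 1 and 2 control counts and reached 1.17 to 1.62 CPM and 1.62 to 2.02 CPM in M+P-. F11A5.18, M151.2, M151.4, T05C3.2, F20G2.7 and Y54G2A.37 had at most 0.429 CPM in any control and 1.83 to 13.2 CPM in M+P-.

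All 45 genes lay on autosomes: 2 on chromosome I, 8 on II, 2 on III, 13 on IV and 20 on V, against 1996, 1671, 1815, 1745 and 1549 genes tested there, and 0 of the 275 tested X-linked genes were called. Some of them were close neighbours in the order of protein-coding genes in RefSeq, taken as at most 3 places apart. Of the 41 protein-coding calls, 10 fell into 4 such groups: Y49F6A.5, M151.7 and M151.2 on chromosome II, C17E7.9, C17E7.4 and sre-9 on V, T05C3.6 and T05C3.2 on V, and F11A5.18 and irld-26 on V. A test of this clustering was not made, and reads shared between adjacent copies were not separable.

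Without M+P+ replicate 3, 172 of 9281 genes tested were higher in M+P- (1.85%) and 3 were lower (0.0323%) by edgeR, while DESeq2 called 436 and 31. At an unadjusted p under 0.05 edgeR had 836 higher and 158 lower. In 123 of the 127 added genes that were higher, M+P+ replicate 3 lay above the other 3 controls, and in 56 it lay within or above the range of M+P-. That library was above the other controls for 2288 of all 9281 genes tested. The 127 genes were called only once it was left out, so the count of 123 follows largely from their choice. Leaving out a further control lowered the higher calls to 49 (replicate 1), 43 (replicate 2) and 75 (replicate 4), and leaving out M+P- replicate 2 or 3 lowered them to 86 or 81.

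**Figure D3:**
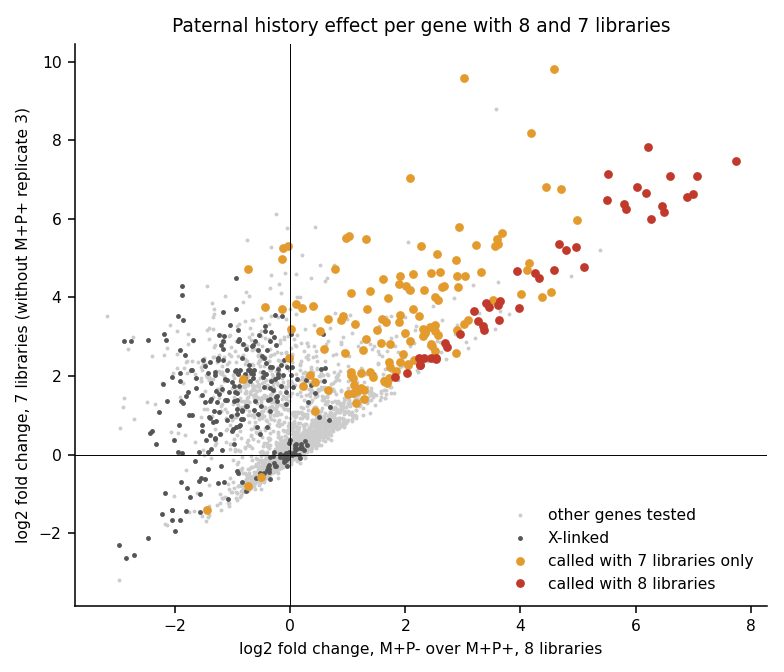
Log2 fold change of M+P- over M+P+ for each gene with 8 libraries (horizontal) and without M+P+ replicate 3 (vertical). The 45 genes called with 8 libraries (red) are above 0 on both axes, the genes called with 7 libraries only (orange) mostly have the larger value on the vertical axis, and many X-linked genes (dark grey) are below 0 on the horizontal axis and above 0 on the vertical one.

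The muscle gene ketn-1, which encodes kettin of the sarcomere, is the clearest of the added genes. Its level was 0.725, 0.472, 217 and 0.515 CPM in M+P+ replicates 1 to 4 and 514, 253, 481 and 574 CPM in M+P-. With 7 libraries the log2 fold change was 9.58 ± 0.45 (SE; edgeR adjusted p = 0.00095), and with 8 it was 3.02 ± 1.76 (SE; edgeR adjusted p = 1.0). Other muscle genes did not follow the same levels. Chosen after their values were seen, the myosin heavy chain gene unc-54 was at 3.92, 2.99, 1094 and 1.03 CPM in M+P+ and 97.2, 5.47, 21.95 and 3.40 CPM in M+P-, with a log2 fold change of -3.19 ± 2.17 (SE) with 8 libraries and 3.52 ± 1.27 (SE) with 7, and myo-3 at 0.363, 0, 42.4 and 0 CPM and 6.31, 0.325, 1.25 and 0.184 CPM. The muscle regulator hlh-1 had 0 counts in all 8 libraries. Of the 26 muscle genes tested with 7 libraries, where 1.85% of all genes were called, 2 were called, ketn-1 and the kindlin gene unc-112, and all 26 were above 0 with a median log2 fold change of 2.55. With 8 libraries 3 of 25 were above 0 and the median was -1.86. Without the called genes the muscle list summed to 566 to 1111 CPM in M+P- and 455 to 579 CPM in the 3 other M+P+ libraries. Most of these control sums came from 1 member, unc-60, at 405.9 to 515.9 CPM there and 462.7 to 526.7 CPM in M+P-. The sums therefore show little of how the remaining muscle genes differed. The neuron list had 3 of 14 tested members called with 7 libraries, against the same 1.85% (unc-31, ric-4 and egl-3, all of vesicle release or neuropeptide processing) and a summed level of 91.1 to 160 CPM in M+P- against 70.3 to 103.1 CPM. Most of the neuron sums in these controls came from snb-1, at 55.65 to 87.39 CPM there and 54.96 to 79.53 CPM in M+P-. The cuticle and intestine lists had 0 called of 42 and 7 tested, with 37 and 7 members above 0. The part of somatic RNA in the 7-library calls was not tested, apart from the parental origin of the reads given next.

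The gene qui-1, needed for avoidance of bitter compounds, had 0, 0, 1.44 and 0 CPM in M+P+ and 14.8, 7.42, 6.06 and 7.89 CPM in M+P-, at least 117-fold higher than the 3 retained controls with the floor of 3 counts over the group (edgeR adjusted p = 0.010). The Dicer-related helicase gene drh-2 had 0.508, 1.10, 11.1 and 1.20 CPM and 50.9, 48.7, 37.6 and 35.7 CPM (log2 fold change 5.49 ± 0.33 SE with 7 libraries, edgeR adjusted p = 0.0013, and 3.59 ± 0.94 SE with 8). The Argonaute gene sago-1 had 0.580, 0.551, 14.2 and 0.601 CPM and 14.9, 11.5, 9.53 and 7.06 CPM (log2 fold change 4.16 ± 0.33 SE with 7 libraries, edgeR adjusted p = 0.0024), and was the called gene of the 19 Argonautes tested, against 1.85% of all genes. Potassium channels had 5 called of 17 tested with 7 libraries, against 1.85% of all genes tested in that fit: egl-2, unc-103, kvs-2, twk-7 and twk-13, with log2 fold changes from 2.28 to 4.20. Of these, egl-2 was at 3.85, 5.14, 2.21 and 3.03 CPM in M+P- and at 2.21 CPM in M+P+ replicate 3 against 0.0859 to 0.290 CPM in the other controls. The gonadal sheath regulator lim-7 was called, from 0.786 to 1.78 CPM over the 4 controls to 3.45 to 4.68 CPM. Among the largest changes of the 7-library fit were also the sulphate permease family genes sulp-4 and sulp-8, the arrestin domain genes arrd-19 and arrd-21, the aldehyde dehydrogenase gene alh-5, suro-1 and exc-13. Their 3 retained controls had 0 to 0.435 CPM and their M+P- libraries 0.716 to 10.2 CPM, while M+P+ replicate 3 had 0.255 to 5.602 CPM. For sulp-8 and exc-13 that library, at 3.23 and 2.46 CPM, lay above every M+P- library. In the same 7-library fit the called nuclear hormone receptor genes were 5 of 47 tested, the F-box genes 5 of 68 and the ligand-gated channels 4 of 24, against 1.85% of all genes tested.

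Germ-cell programmes did not pass the test. No member of the spermatogenesis (90 tested), oogenesis (26), core germline (51), histone (20) or heat shock (10) lists was called in either fit by edgeR. The median log2 fold changes of these lists with 8 libraries were -0.10, -0.32, -0.01, -0.24 and -0.05, and 2 of the 26 oogenesis genes were above 0. The oogenesis list summed to 5797, 3815, 2728 and 2199 CPM in M+P+ and 4265, 3120, 2267 and 2133 CPM in M+P-, so the groups overlapped.

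The 3 genes lower without M+P+ replicate 3 had moderate levels in both groups. The telomere-binding gene pot-3 had 27.5, 24.2, 21.2 and 22.3 CPM in M+P+ and 15.1, 15.6, 15.5 and 12.02 CPM in M+P-. It fell by 0.79 on the log2 scale with 7 libraries (SE 0.14, edgeR adjusted p = 0.041). The microtubule regulator gene cls-3, a CLASP homolog, fell by 0.57 (SE 0.09, edgeR adjusted p = 0.029). W05B2.7, named after its values were seen, fell by 1.40 (SE 0.26, edgeR adjusted p = 0.049). With 8 libraries their adjusted p were 0.075, 0.075 and 0.055.

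Reads over sequence differences between the 2 parental genomes were compared between the groups for each allele. In sperm-allele reads 9 of 2810 autosomal genes tested were higher in M+P- (0.32%) and 0 lower by edgeR, and in oocyte-allele reads 0 of 2753 were called (0.0%). At an unadjusted p under 0.05 there were 95 higher and 27 lower on the sperm allele, and 42 higher and 50 lower on the oocyte allele. The test of the difference between alleles called 7 of 2466 genes (0.284%), each with the higher log2 fold change on the sperm allele, and 0 in the other direction, with 101 and 26 at an unadjusted p under 0.05. That test called 4 genes when M+P+ replicate 3 was left out: tank-1, nra-4, F25E5.1 and lido-7.

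The tankyrase homolog gene tank-1, chosen after its values were seen, carried the most allele reads of the genes called on the sperm allele. Its sperm-allele reads numbered 33, 37, 58 and 74 in M+P+ and 314, 373, 314 and 295 in M+P-. Its oocyte-allele reads numbered 26, 25, 49 and 58 and 40, 43, 36 and 57, and these groups overlapped. The sperm allele rose by 2.68 ± 0.26 on the log2 scale (SE; edgeR adjusted p = 0.00041), against 0.16 ± 0.34 for the oocyte allele, and the difference was 2.52 ± 0.23 (edgeR adjusted p = 9.4e-10). In total counts tank-1 had 75.2, 91.7, 190.1 and 227 CPM in M+P+ and 482, 443, 504 and 568 CPM in M+P-, a difference that did not pass the test over all reads (edgeR adjusted p = 0.18).

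For ketn-1 the sperm-allele reads were 0, 0, 22 and 0 in M+P+ and 189, 84, 114 and 200 in M+P-. The oocyte-allele reads were 0, 0, 47 and 0 and 25, 4, 11 and 8. In M+P+ replicate 3 the gene's RNA thus came from both alleles, whereas 92.4% of its allele reads in M+P- were from sperm (95% Wilson interval 90.1% to 94.2%). Since the other 3 controls had 0 allele reads, the control ratio of the alleles rested on M+P+ replicate 3 alone, and the allele difference of ketn-1 could not be tested without it. F25E5.1 had 2, 6, 3 and 0 sperm-allele reads in M+P+ and 81, 81, 49 and 44 in M+P-, with 1 to 10 and 5 to 11 oocyte-allele reads, and an allele difference of 4.00 ± 0.67 (SE; edgeR adjusted p = 0.00053), or 3.62 ± 0.79 (edgeR adjusted p = 0.032) without M+P+ replicate 3. For nra-4, also chosen after its values were seen, a homolog of a receptor-assembly factor expressed at 233 to 319 CPM in the controls and 343 to 434 CPM in M+P-, the sperm allele rose by 1.11 ± 0.19 and the oocyte allele changed by -0.19 ± 0.17. The other genes called in the allele test, named after their values were seen, were dnbp-1, lido-7 and Y25C1A.13. Without M+P+ replicate 3 the adjusted p was 0.82 for dnbp-1, which then had 1 allele read in the controls, and 0.057 for Y25C1A.13. For lido-7 and Y25C1A.13 the oocyte-allele log2 fold changes were -1.02 ± 0.63 and -0.72 ± 0.34 (SE). Their sperm-allele log2 fold changes, 1.78 ± 0.35 and 0.95 ± 0.32 (SE), did not pass alone (edgeR adjusted p = 0.065 and 0.60). Those called on the sperm allele also included fbxa-64 and clec-204 and, chosen after their values were seen, oac-36 and tra-3, a calpain protease gene of the sex determination pathway.

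Over the 45 genes called with 8 libraries, 19 had at least 1 allele read in M+P- and 15 had at least 10. The sperm share of the reads in M+P- was over 75% in 14 of those 15 and over 90% in 7, with a median of 89.9%, against 51.5% over 2910 tested autosomal genes with as many reads. M151.7 had the lowest share, 56.5%, with 26 sperm-allele and 20 oocyte-allele reads in M+P- and 0 of both in M+P+. The authors' deposited table gives no number of exonic sequence differences for M151.7, so the source of its allele reads could not be checked. Summed over the 45 genes, sperm-allele reads, scaled like CPM to all allele reads of the library, were at 14.2 to 48.0 in M+P+ and 561 to 857 in M+P-. Oocyte-allele reads also lay higher, at 79.5 to 119.2 on the same scale in M+P- against 15.2 to 51.5 in M+P+. For the 127 added genes, M+P+ replicate 3 had 181 oocyte-allele and 206 sperm-allele reads (53.2% sperm), and the 4 M+P- libraries had 87.3% to 91.9% sperm. Somatic marker genes that were not called and lie on autosomes had 43.6%, 67.1%, 52.5% and 53.7% sperm-allele reads in M+P- replicates 1 to 4, on 41 to 133 reads, and 50.5% in M+P+ replicate 3. The difference in parental origin between the added genes and these markers was not tested.

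**Figure D4:**
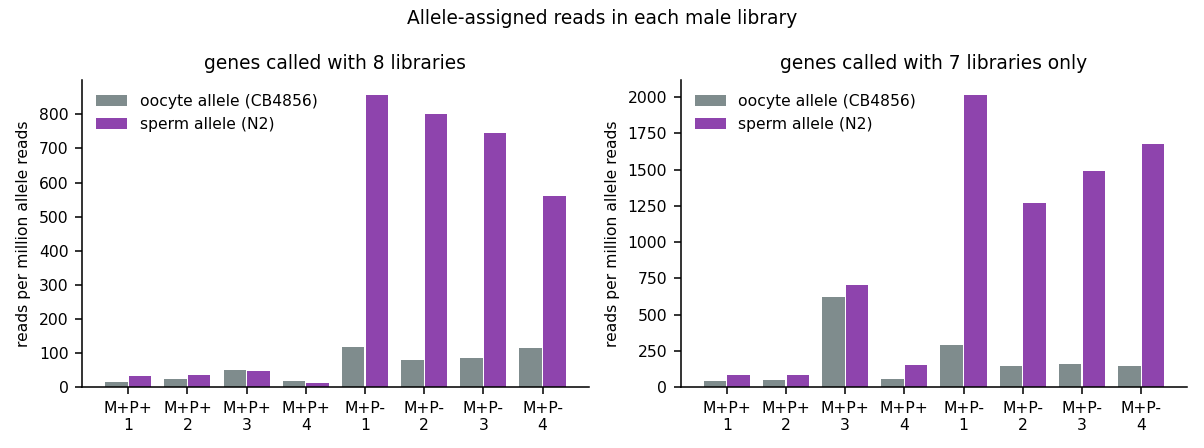
Reads assigned to the oocyte (grey) and sperm (purple) allele in each of the 8 male libraries, scaled like CPM to all allele reads of the library and summed over the 45 genes called with 8 libraries (left) and the 127 called higher with 7 libraries only (right). Sperm-allele reads reach 561 to 857 in M+P- on the left, and on the right M+P+ replicate 3 alone among the controls has raised reads, from both alleles.

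Over all autosomal genes the sperm share was 52.6%, 53.2%, 53.1% and 52.9% in M+P- replicates 1 to 4 and 51.94%, 51.95%, 52.15% and 51.6% in M+P+. All M+P- libraries were above all M+P+ libraries, with a mean difference of 1.03 percentage points (exact two-sided permutation test, 4 against 4, p = 0.0286, the smallest such a design can give). The difference was 0.939 points when the 172 genes called with 7 libraries were left out. Gene by gene the shift was small: over 2466 genes the median difference in sperm share was 0.696 points, and 1380 were above 0. A difference of over 10 points upwards was seen in 250 genes and downwards in 117.

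On the X, which a male has from the oocyte, few reads carried the sperm allele: they made 2.33% to 3.69% of X-linked allele reads in M+P- and 3.72% to 11.9% in M+P+, on 83 to 2260 reads a library, against 46.8% to 52.5% in the hermaphrodite germlines of the same cross, which have a sperm-derived X. In M+P+ replicate 3, which had the most X-linked RNA, the share was 3.72% (95% Wilson interval 3.01% to 4.58%), so its X-linked reads were also of oocyte origin. The group means differed by -3.46 percentage points (exact two-sided permutation test, p = 0.0286), and by -1.67 without M+P+ replicate 2, which had 16 sperm-allele reads among 135. Levels of X-linked genes turned with the library set: the median log2 fold change of the X-linked genes tested was -0.88 with 8 libraries, 34 of 275 above 0, and 1.36 with 7, 220 of 281 above 0. Their share of counts, 0.187% ± 0.0831 (SD, n = 4) in M+P- and 0.110% ± 0.0171 (SD, n = 3) in the other M+P+ libraries, overlapped between the groups (exact permutation test, p = 0.23). Muscle and cuticle lists moved the same way across these libraries, and their part in the X-linked values was not tested.

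Genes that rose in the offspring were also examined in germlines of mes-3 and him-8 males. The titles mark these mes-3 males as MpZm and name no mes-3 allele for the him-8 males. The M+P+ fathers carried mes-3(bn35) over hT2, so this comparison is not between the 2 kinds of father. Germlines of mes-3 males against him-8 males, 3 libraries each, differed in 622 of 8873 genes upwards (7.01%) and 117 downwards (1.32%) by edgeR, with no sample shared with the offspring. Of the 45 genes, 36 were tested there, all 36 were above 0 and 30 were called higher. Of the 9189 genes tested in the offspring, 8616 were tested there and 4656 were above 0. The 45 genes had a median of 0.351 CPM in him-8 and 5.45 CPM in mes-3 males. A gene near silent in him-8 males passed the expression filter only through high mes-3 libraries. The direction of such genes was therefore largely fixed by the filter. These 30 are 66.7% of the 45 and 4.82% of the 622. With 7 libraries 101 genes were shared, 58.7% of 172 and 16.2% of 622. For glr-5 the him-8 males had 0, 0.141 and 0.912 CPM and the mes-3 males 26.6, 18.2 and 21.7 CPM (log2 fold change 5.91 ± 0.68 SE, edgeR adjusted p = 0.0028). The gene nhr-81 was at 0 in all 3 him-8 libraries and at 6.53, 6.48 and 3.35 CPM in mes-3. By contrast tank-1 had 286, 381 and 248 CPM in him-8 and 609, 506 and 437 CPM in mes-3, which did not pass the test (log2 fold change 0.71 ± 0.19 SE, edgeR adjusted p = 0.065), and M151.7 had 0 to 0.987 and 2.75 to 4.44 CPM (edgeR adjusted p = 0.11). The 622 genes had a median log2 fold change of 0.40 in the male offspring with 8 libraries, 384 of 549 above 0, and 0.90 with 7, 454 of 560 above 0. The count of this comparison of males also moved with the libraries: 441, 283 and 528 higher without him-8 replicates 1, 2 and 3, and 377, 203 and 425 without mes-3 replicates 1, 2 and 3.

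Hermaphrodite germlines of the same cross, 2 libraries for each history, showed the same direction. In a fit with the male libraries their own effect was called for 22 of 11560 genes upwards (0.19%) and 1 downwards by edgeR. All 45 genes were above 0 in hermaphrodites, against 5030 of 11560 genes tested, and 5 of them were called there. For glr-5 the hermaphrodite libraries had 0.846 and 0.819 CPM in M+P+ and 22.1 and 35.1 CPM in M+P-, and for F58D12.3 they had 0.254 and 0.298 CPM and 16.5 and 22.5 CPM. Others were not silent in the hermaphrodite controls: M151.7 had 28.4 and 26.7 CPM in M+P+ and 94.5 and 47.2 CPM in M+P-. The difference between the male and hermaphrodite effects was called for 0 of 11560 genes by edgeR (0.0%), with 95 higher and 192 lower at an unadjusted p under 0.05, and for 19 higher and 18 lower by DESeq2. Without M+P+ replicate 3 it was called for 10 of 11139 genes (0.0898%), each with the larger log2 fold change in males. One of them is fbxa-65, with 3.72 and 3.13 CPM in hermaphrodite M+P+ against 0 to 0.236 CPM in male M+P+ (difference 4.06 ± 0.51 SE on the log2 scale, edgeR adjusted p = 0.024). Another is sago-1, with 13.9 and 11.8 CPM in hermaphrodite M+P+ and 23.5 and 22.9 CPM in M+P- (difference 3.33 ± 0.44 SE, edgeR adjusted p = 0.024). All 10 had a higher mean in hermaphrodite M+P+ than in male M+P+ without replicate 3, and the test compares ratios. For lin-66 the means were 78.2 and 129 CPM in hermaphrodite M+P+ and M+P-, against 1.72 and 27.2 CPM in males. For sup-37 they were 13.6 and 6.72 CPM, against 0.366 and 4.15 CPM.

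**Figure D5:**
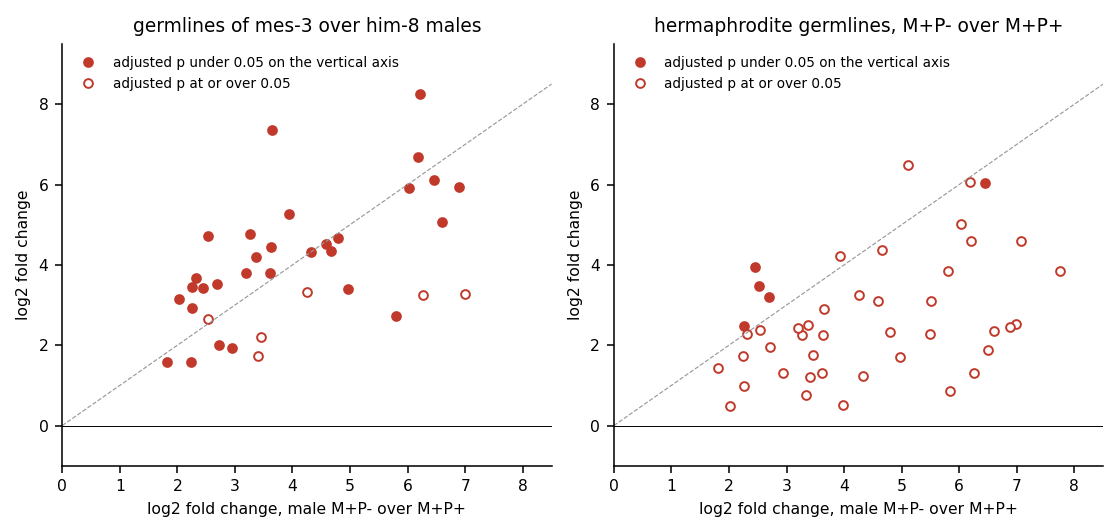
For the genes called with 8 male libraries, the log2 fold change in male offspring (horizontal) against that in mes-3 over him-8 male germlines (left, 36 genes) and in hermaphrodite offspring (right, 45 genes). Filled points passed an adjusted p under 0.05 on the vertical axis, 30 on the left and 5 on the right. The dashed line marks equal values, and no point lies below 0. On the left the expression filter largely fixed this for genes near silent in him-8 males.

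Histone marks in the germlines of him-8 males, deposited by the authors as z-scores of CUT&RUN signal per gene, described the chromatin of the called genes where the Polycomb complex is present. The score for H3K27me3, averaged over 2 replicates, was above 0 in 42 of the 43 called genes that had one, with a median of 0.488. Over 8855 genes tested it was above 0 in 41.7%, with a median of -0.348. Among the 2362 tested genes whose mean over the 8 libraries was under 10 CPM it was above 0 in 81.7%, with a median of 0.459. The H3K36me3 score was above 0 in 6 of the 43, with a median of -0.258, against 80.4% of all genes tested and 49.1% of those under 10 CPM. The 127 added genes had similar scores, with H3K27me3 above 0 in 120 of 123 and H3K36me3 in 30 of 123. For tank-1, which is expressed in the control germlines, the H3K27me3 and H3K36me3 scores of him-8 replicate 1 were 0.555 and 0.206, and for mes-2 they were -1.26 and 1.33.

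In the authors' deposited table of the same comparison, 168 of 12561 genes with an adjusted p-value were higher in M+P- at under 0.05 (1.34%) and 22 were lower. All 43 of the 45 genes listed there were among them in the authors' deposited table. Of the added genes, 47 of 123 were among the higher genes of the authors' deposited table. For glr-5 the authors' deposited table gives 8.13 RPKM, a read density per gene length and depth, in M+P- and 0.128 in M+P+, and for tank-1 it gives 76.9 and 22.4 RPKM with an adjusted p of 4.3e-06. For ketn-1 the authors' deposited table gives 32.9 and 3.89 RPKM with an adjusted p of 0.71.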

How the data were processed

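Poly(A) RNA of 8 male germline pools was compared. Per the submitters' processing notes, TopHat2 2.1.1, Bowtie2 2.3.5.1, HTSeq and DESeq2 1.22.2 were used with genome build ce10; whether reads of several places were kept and whether strand was used are not given in the sources used here. The deposited values used are raw read counts per gene over all reads and over reads of each allele, as the file headers name them. From the authors' table came log2 fold changes, adjusted p-values and mean RPKM, per the file headers, and from another deposited table z-scores of histone marks, a score with no fixed unit.

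Here counts were tested with edgeR 4.0.16 (TMM scaling, expression filter, quasi-likelihood F-test, Benjamini-Hochberg adjustment over all genes tested, threshold 0.05), in R 4.3.3, after it was tested on simulated data. The SE of a log2 fold change was derived from the test, as its absolute value divided by the square root of the F statistic. CPM are scaled to the total count of the library. Allele tests kept autosomal genes with a mean of at least 2 reads of the allele per library, or 10 of both alleles in the test of the difference, which had the library as a block. Alternatives were DESeq2 1.42.0, limma 3.58.1 voom with quality weights, other scaling, no filter, a replicate block and leaving out each library. Of 45461 genes, 44080 matched RefSeq annotation (WBcel235), used for symbols, chromosomes and gene order only. Confidence intervals are 95% and cover counting error only. No pair of libraries of a group was identical.

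Genes named are the 20 largest changes among non-overlapping 8-library calls, the 12 largest in each direction called without M+P+ replicate 3 only, called members of the lists, mes-2, mes-3, mes-4, mes-6, him-8 and fem-2, and the 10 calls with most allele reads; other genes were chosen after their values were seen. The members and lists were chosen with earlier results of these data known.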

Additional observations from a re-analysis of the deposited data

Results flagged for a closer look

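In 106 groups of 4 libraries examined for a library far from the other 3, 16 were flagged. The usual rate of about 1 in 20 is no yardstick here. M+P+ replicate 3 had been named beforehand for its somatic and X-linked RNA. A gene with counts in 1 library and 0 in the others is also flagged whatever its level. M+P+ replicate 3 was high for the share of X-linked counts (0.994%) and for the summed CPM of the muscle (4976), cuticle (4445), neuropeptide and insulin-like (439), intestine (409.6), neuron (267) and pharynx (2.72) lists. Single genes far from the other controls were nhr-78 in the same library (0.594 CPM), M151.7 in M+P+ replicate 4 (1.98 CPM), and, at 1 or 2 counts where the others had 0, Y49F6A.5 in replicate 1 (0.0725 CPM), sre-9 in replicate 2 (0.157 CPM), and nhr-81 and irld-26 in replicate 3 (0.0849 CPM each). M+P- replicate 1 was high for the core germline list (16480 CPM) and F58D12.3 (15.7 CPM) and low for the C-type lectin list (1854 CPM).

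Without M+P+ replicate 3, the log2 fold change of M+P- over M+P+ was larger in male than in hermaphrodite germlines for 10 genes by edgeR. Each had the lower control level in males. The log2 differences were 4.47 for sup-37, 4.37 for ugt-45, 4.06 for fbxa-65, 3.90 for dpy-27 (a condensin subunit gene of dosage compensation), 3.33 for sago-1, 3.23 for lin-66, 3.22 for atg-16.2, 3.16 for C17E7.4, 2.85 for W06H8.5 and 2.70 for hlh-30 (the TFEB homolog). All 10 had an adjusted p between 0.014 and 0.024, and with M+P+ replicate 3 none was called. For hlh-30 the male controls had 1.67, 1.02, 23.8 and 1.29 CPM.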

How the results depend on the processing

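The call counts depend on tool and library, while the genes named by the rule as called, for which the alternatives were run, kept their direction, except egl-3, whose log2 fold change was -0.73 with all 8 libraries. The alternatives were not run on unc-54 and myo-3; the fold change of unc-54 and the median of the muscle list turned with M+P+ replicate 3. With 8 libraries (45 calls), DESeq2 gave 169 calls, limma-voom 225, no filter 24, and leaving out 1 library 3 to 175. With 7 libraries (175 calls) these were 467, 869, 113 and 43 to 179. The labels do not say whether the replicate numbers pair the samples, and deviations of same-numbered libraries correlated unevenly, at 0.40, -0.21, 0.06 and 0.84. With a replicate block the calls were 11 with 8 libraries, 542 with 7, 18 on the sperm allele and 4 on the oocyte allele. The cause was not tested. Without M+P+ replicate 3 the allele test had 4 calls and the male against hermaphrodite test 10, where DESeq2 had 37 with all libraries. The comparison of mes-3 and him-8 males gave 1117 calls with DESeq2 and 210 to 671 without 1 library. Alternatives to the sperm share, chosen after seeing the data, left the autosomal difference at 0.924 to 1.16 points and the X-linked at -4.38 to -1.67 without 1 library, where the smallest p of an exact test is 0.0571. Of the 26 named genes called with 8 libraries, 10 to 24 missed the threshold when a library other than M+P+ replicate 3 was left out, and 0 without that library. Depth limits genes near 0: 3 counts are 0.195 CPM or more.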

Other observations

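Of the 3 genes that were lower in M+P- males without M+P+ replicate 3, cls-3 and W05B2.7 were higher in mes-3 than in him-8 males. For cls-3, the CLASP homolog, him-8 males had 5.92, 0.564 and 2.13 CPM and mes-3 males 57.2, 52.9 and 47.1 CPM (log2 fold change 4.15 ± 0.52 SE, edgeR adjusted p = 0.0042), whereas male offspring had 65.4 to 82.3 CPM in M+P+ and 49.2 to 62.4 CPM in M+P-. For W05B2.7 the values were 0 to 1.55 CPM in him-8 males and 20.6 to 37.7 CPM in mes-3 males, and 15.1 to 23.1 CPM in M+P+ and 6.06 to 10.02 CPM in M+P- offspring. In the him-8 germlines cls-3 had the lowest average score of all genes for both marks, -3.787 for H3K27me3 and -2.479 for H3K36me3. The bearing of this on its low RNA in him-8 males was not tested.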
